A study of Bos taurus with 14 samples.

Results

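Glycolysis and glycogen metabolism were followed in the longissimus dorsi, a long back muscle, of cattle through 32 genes chosen by symbol. The genes fell into 4 roles: 6 of glycogen breakdown, 6 of glycogen synthesis, 11 of upper glycolysis and 9 of lower glycolysis. Each symbol stood on exactly 1 of the 18078 gene rows of the count table, and all 32 passed the filter on low counts that left 12187 genes for testing. The muscle came from 14 female cattle slaughtered at postnatal day 485. The dams of the 7 control animals were given 100% of their nutritional requirement between gestational day 158 and birth. The dams of the 7 restricted animals were given less over the same days, 70% according to the series design and 50% according to the sample protocol. The offspring themselves were all managed alike, with free access to feed from day 301. The labels name no breed, genotype or sire, so it is not known whether animals of a group were related. The p-values set a difference or slope against the spread between these animals and treat the animals as independent.

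Muscle stores glucose as glycogen. Glycogen phosphorylase, switched on by phosphorylase kinase, releases sugar phosphate from that store during contraction. Glycogen synthase, which builds on the primer protein glycogenin, lays glycogen down again at rest. Glycolysis then carries the sugar phosphate to pyruvate, which lactate dehydrogenase turns to lactate when oxygen is short. Fast-contracting fibres rely on this route more than slow fibres do, and many of its steps have a muscle isoform beside an isoform used in most other tissues.

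Between 13631018 and 17325779 reads per animal were counted on genes. The tissue label was checked against its markers: 10 of 10 markers of fast fibres and 10 of 10 markers of slow fibres were tested genes. The fast markers summed to between 77637 and 109021 CPM (counts per 1e+06 scaled reads) and the slow markers to between 14067 and 25007 CPM. Markers of other cell types were present at lower sums, fibroblast markers at 399.5 to 1153 CPM, adipocyte markers at 127.3 to 342.3 CPM, smooth muscle markers at 179.6 to 296.7 CPM, endothelial markers at 170.4 to 282.6 CPM and macrophage markers at 13.3 to 35.3 CPM. The libraries are of whole muscle, so fewer cells of a type and less RNA per cell cannot be told apart.

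The 32 genes together held 9.59% ± 0.669 (SD, n = 14) of all counted reads. The share ran from 8.60% in control 4 to 11.05% in control 7. It was 9.60% ± 0.798 (SD, n = 7) in control animals and 9.58% ± 0.576 (SD, n = 7) in restricted animals. By these plain counts the group means lay far closer together than the animals within either group. With the scaled library sizes used for CPM, the restricted mean was 0.298 points higher, beside the SD of 0.669 above. Lower glycolysis held 3.96% ± 0.346 of all counts, upper glycolysis 3.64% ± 0.282, glycogen breakdown 1.65% ± 0.126 and glycogen synthesis 0.335% ± 0.0249 (SD, n = 14 for each).

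**Figure D1:**
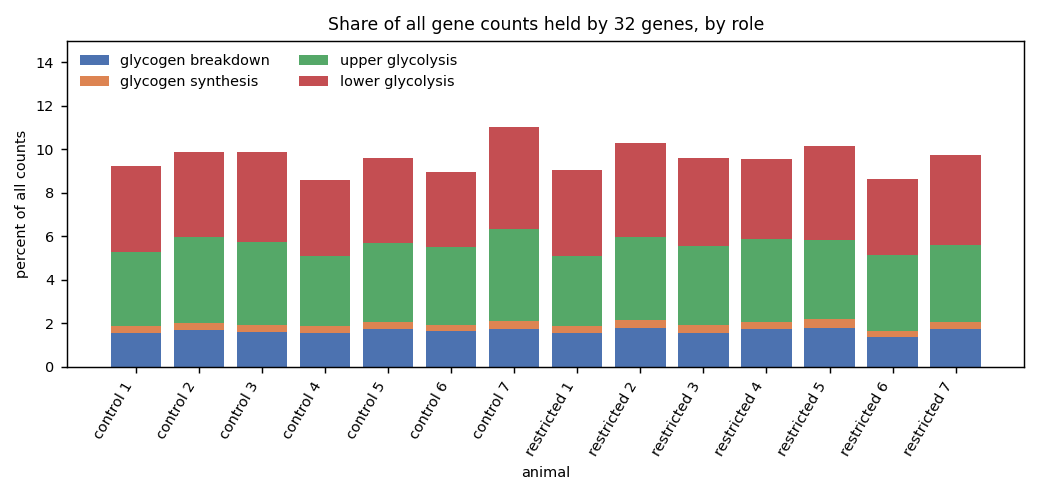
Percent of all gene counts (y axis) held by the 32 genes in each of the 14 animals (x axis), stacked by role. The totals lie between 8.60% and 11.05%, with control 4 lowest and control 7 highest, and the glycogen synthesis band is the thinnest in every animal.

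A few genes made up most of that share. ALDOA, the muscle aldolase that splits the hexose bisphosphate, held 31.2% of the counts of the 32 genes, GAPDH 16.2% and PYGM 11.7%. With ENO3, PKM, LDHA and PFKM, 7 genes held 84.1%. These shares depend on transcript length as well as on abundance. Levels were therefore compared between genes per length, as reads per kilobase of the deposited gene length per 1e+06 scaled reads (RPKM). Shares of isoforms are given by counts and also per length.

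Per length, glycogen breakdown was led by PYGM, muscle glycogen phosphorylase, at 3594 ± 320 RPKM (SD, n = 14). PGM1, the phosphoglucomutase that passes its product to glycolysis, stood at 760 ± 86.7 RPKM. Phosphorylase kinase was represented by its muscle alpha subunit PHKA1 at 321 ± 40.1 RPKM, its beta subunit PHKB at 198 ± 25.7 RPKM and its catalytic subunit PHKG1 at 47.6 ± 6.04 RPKM. The brain phosphorylase PYGB was the lowest of all 32 genes at 0.741 ± 0.199 RPKM, from 21 to 79 reads per animal.

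In glycogen synthesis the highest gene was PPP1R3A, the muscle subunit that brings protein phosphatase to glycogen, at 359 ± 62.6 RPKM. PPP1R3C, another such targeting subunit, stood at 227 ± 48.9 RPKM, the muscle glycogen synthase GYS1 at 208 ± 24.1 RPKM and the primer glycogenin GYG1 at 158 ± 19.3 RPKM. PPP1R3C and GYS1 differed by less than the SD of PPP1R3C. UGP2, which makes the activated glucose, stood at 89.4 ± 12.7 RPKM and the branching enzyme GBE1 at 8.87 ± 2.004 RPKM.

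Upper glycolysis held the most abundant and several of the least abundant members. ALDOA stood at 14828 ± 1382 RPKM, the muscle phosphofructokinase PFKM at 1393 ± 178 RPKM and the phosphoglucose isomerase GPI at 673 ± 75.7 RPKM. The muscle fructose bisphosphatase FBP2, which runs the phosphofructokinase step backwards, stood at 209 ± 44.7 RPKM. The hexokinases were far lower, HK2 at 18.1 ± 5.001 RPKM and HK1 at 2.59 ± 0.701 RPKM. The other phosphofructokinases were also low, the liver form PFKL at 3.22 ± 0.537 RPKM and the platelet form PFKP at 1.34 ± 0.306 RPKM. PFKFB1 and PFKFB3, bifunctional enzymes that set the level of a phosphofructokinase activator, stood at 17.1 ± 2.20 and 20.8 ± 16.6 RPKM. The triosephosphate isomerase TPI1 stood at 10.99 ± 2.32 RPKM, from 219 to 454 reads per animal. Its row was the only one in the table described as this enzyme, and how reads shared with near-identical copies were counted is not given, so its level is uncertain.

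In lower glycolysis, GAPDH, the dehydrogenase that follows the splitting steps, stood at 8264 ± 975 RPKM. The muscle enolase ENO3 stood at 3315 ± 377 RPKM, within 1 SD of PYGM. LDHA, the muscle lactate dehydrogenase, stood at 2549 ± 438 RPKM, the muscle phosphoglycerate mutase PGAM2 at 2121 ± 240 RPKM, the pyruvate kinase PKM at 1925 ± 248 RPKM and the phosphoglycerate kinase PGK1 at 1124 ± 189 RPKM. PGAM2 and PKM differed by less than either SD. The heart lactate dehydrogenase LDHB stood at 145 ± 31.2 RPKM, the widespread enolase ENO1 at 60.3 ± 9.53 RPKM and the widespread mutase PGAM1 at 13.7 ± 1.56 RPKM.

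**Figure D2:**
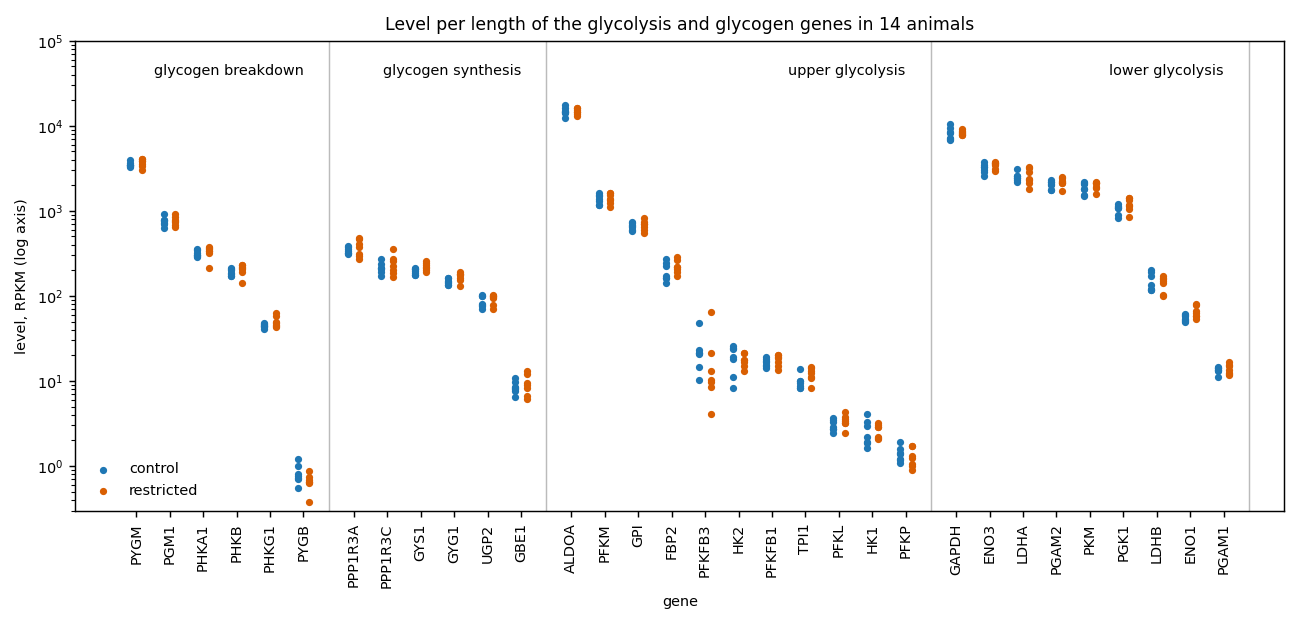
Level per length (y axis, RPKM on a log axis) of the 32 genes (x axis, ordered within role) in the 14 animals; each point is 1 animal, coloured by diet. ALDOA is highest at a mean of 14828 RPKM and PYGB lowest at 0.741 RPKM, and the control and restricted points overlap for all 32 genes, as they do for 99.9% of all genes tested.

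The choice between isoforms was read as the share of the first-named gene in the summed counts of its set, per animal. For 4 sets the muscle isoform held nearly all counts. PYGM held 99.97% of its counts with PYGB, PFKM 99.66% of its counts with PFKL and PFKP, ENO3 98.7% ± 0.176 of its counts with ENO1, and PGAM2 98.6% ± 0.216 of its counts with PGAM1 (SD, n = 14). Per length, the same shares were 99.98%, 99.67%, 98.2% and 99.4%.

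LDHA, whose subunit favours lactate formation, held 94.5% ± 1.58 of its counts with LDHB, between 91.8% and 96.9% in the 14 animals. HK2, the insulin-regulated hexokinase of muscle, held 81.1% ± 6.59 of its counts with HK1, between 64.8% and 89.7%. PPP1R3A held 69.7% ± 5.44 of its counts with PPP1R3C, between 60.8% and 78.5%. Per length, the shares of LDHA, HK2 and PPP1R3A were 94.4%, 86.7% and 61.3%.

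PFKFB1 with PFKFB3 had the widest range in points of the 8 sets. The share of PFKFB1 had its lowest value, median and highest value at 13.3%, 29.2% and 44.8% in control animals and at 9.16%, 45.5% and 69.1% in restricted animals. The groups overlapped, and the extremes were both restricted animals. The mean was 28.8% ± 9.48 (SD, n = 7) in control and 41.6% ± 18.2 (SD, n = 7) in restricted animals, a difference of 12.8 points with a two-sided exact permutation p of 0.133 and 0.531 after adjustment over the 8 sets. Without restricted 6 the difference was 18.2 points (exact permutation p = 0.00816, adjusted 0.0653). Without restricted 7 it was 8.22 points (exact permutation p = 0.254, adjusted 0.928). The sample titles carry a last letter, A or B, before the ending for diet, and its meaning is not given. With only the animals whose titles end in A in this sense, the difference was 1.352 points (exact permutation p = 0.841, adjusted 0.944). That choice leaves out control 2, control 4, restricted 1, restricted 2 and restricted 7. PFKFB1 itself ran from 31.7 to 47.5 CPM in the 14 animals and PFKFB3 from 19.7 to 314.0 CPM. Per length, the share of PFKFB1 was higher, 51.1% ± 17.1 over all animals (SD, n = 14). It was then 44.8% ± 11.6 in control and 57.3% ± 20.2 in restricted animals (SD, n = 7 each).

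None of the 8 isoform shares passed the two-sided exact permutation test between diets. The raw p was 0.107 for PYGM, 0.678 for PFKM, 0.721 for PGAM2, 0.263 for ENO3, 0.790 for LDHA, 0.911 for HK2 and 0.790 for PPP1R3A, and the adjusted p ran from 0.531 to 0.911. The smallest p these 3432 assignments allow is 0.000583. LDHA stood at 94.4% ± 1.504 in control and 94.6% ± 1.77 in restricted animals (SD, n = 7 each), and HK2 at 81.3% ± 8.33 and 80.8% ± 4.95. The differences in the shares of PFKM, PGAM2, LDHA, HK2 and PPP1R3A changed sign when single animals were left out.

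**Figure D3:**
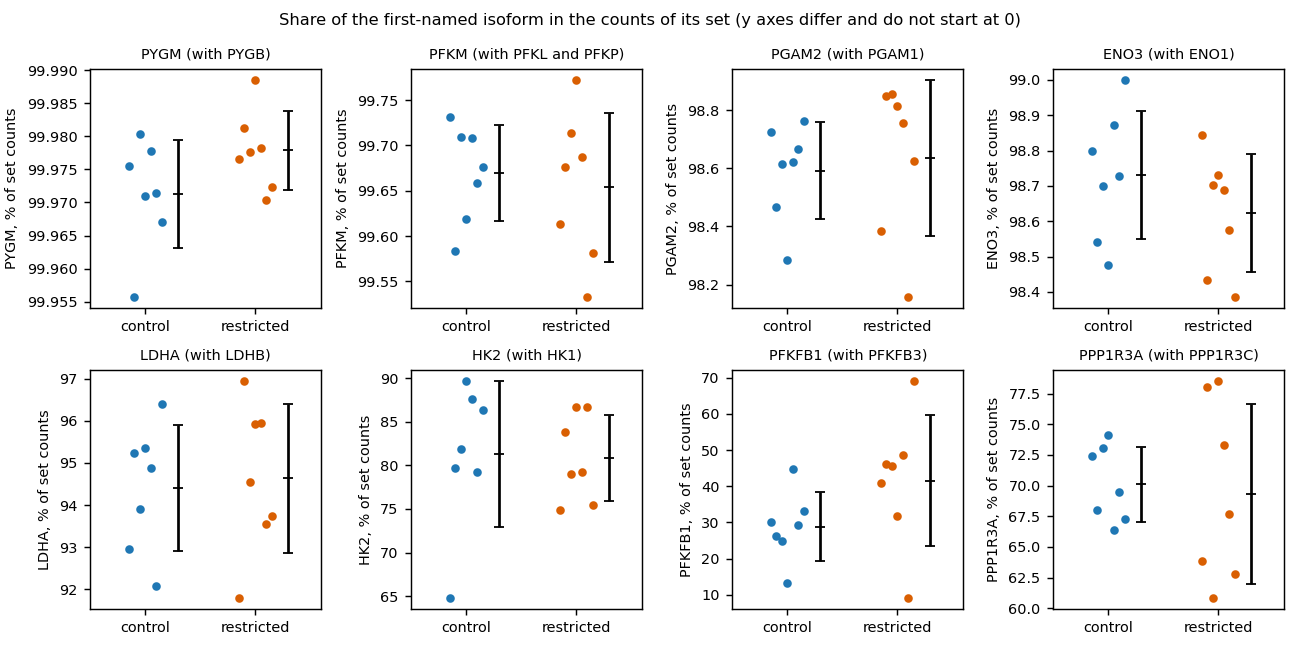
Share of the first-named isoform (y axis, percent of the counts of its set; the axes differ and do not start at 0) in control and restricted animals for 8 isoform sets; each point is 1 animal. PYGM stays at about 99.97%, LDHA lies between 91.8% and 96.9%, and PFKFB1 spreads from 9.16% to 69.1%.

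The comparison of restricted with control animals asked whether nutrition of the dam in late pregnancy left a difference in these genes in the grown offspring. None of the 32 genes was called at an adjusted p under 0.05 by edgeR's quasi-likelihood test, where 0% of the 12187 genes tested were called. DESeq2 and limma voom also called 0 of the 32. At an unadjusted p under 0.05 stood 4 of the 32, against 4.25% of all genes. All 4 were higher in restricted animals, against 2.17% of all genes, and 0 were lower, against 2.08%. DESeq2 and limma voom likewise put 4 of the 32 at an unadjusted p under 0.05. The range of CPM in control animals overlapped that in restricted animals for all 32 genes, as for 99.9% of all genes tested.

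Of the 32 fitted fold changes, 26 were above 1, against 49.7% of all genes tested, and 19 were above 1 when libraries were scaled by total counts only. The median log2 fold change was 0.08 over the 32 genes and -0.0008 over all genes. By role, 5 of 6 breakdown genes, 6 of 6 synthesis genes, 7 of 11 upper glycolysis genes and 8 of 9 lower glycolysis genes were above 1. The median was 0.037 with libraries scaled by total counts only, 0.046 with only the animals whose titles end in A, and 0.14 without restricted 6.

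The smallest p among the higher genes belonged to ENO1 (ENSBTAG00000013411), the enolase of most tissues. Its lowest value, median and highest value were 99.1, 106.5 and 121.3 CPM in control animals and 107.2, 125.3 and 158.8 CPM in restricted animals. All 7 restricted animals stood above the control median, and restricted 2 and restricted 7 stood highest. The log2 fold change was 0.25 ± 0.0934 (SE), which is 1.19-fold (95% interval 1.04 to 1.37), and the adjusted p was 1 by edgeR's quasi-likelihood test.

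GYS1 (ENSBTAG00000039958), muscle glycogen synthase, had 622.7, 694.0 and 748.7 CPM as lowest value, median and highest value in control animals and 676.7, 773.5 and 919.8 CPM in restricted animals. Of the restricted animals, 6 of 7 stood above the control median, with restricted 7 below it. The log2 fold change was 0.19 ± 0.0780 (SE), which is 1.14-fold (95% interval 1.02 to 1.28), and the adjusted p was 1 by edgeR. GYG1, the primer on which the synthase builds, had a ratio of 1.14 (95% interval 1.01 to 1.29) and TPI1 a ratio of 1.24 (1.02 to 1.502), both with an adjusted p of 1 by edgeR. The 4 genes at an unadjusted p under 0.05 thus came from glycogen synthesis, upper glycolysis and lower glycolysis. Of the 6 breakdown genes 0 were among them, which lies near the 4.25% of all genes at that p.

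The smallest p among the lower genes belonged to PYGB (ENSBTAG00000004625). It had 2.11, 2.93 and 4.60 CPM as lowest value, median and highest value in control animals and 1.45, 2.46 and 3.34 CPM in restricted animals, so that 1 of 7 restricted animals stood above the control median. The log2 fold change was -0.33 ± 0.189 (SE), which is 0.798-fold (95% interval 0.606 to 1.05), with an adjusted p of 1 by edgeR. Without control 2 the log2 fold change was -0.20. PFKP (ENSBTAG00000002683) had 4.16, 5.40 and 7.46 CPM in control animals and 3.46, 4.83 and 6.66 CPM in restricted animals, in the same order. Its log2 fold change was -0.14 ± 0.169 (SE), which is 0.910-fold (95% interval 0.710 to 1.16), with an adjusted p of 1 by edgeR. Leaving out single animals moved it between -0.22, without restricted 7, and -0.04, without control 2.

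The 3 genes with the most counts had ratios near 1. ALDOA (ENSBTAG00000012927) had 24793, 29124 and 35576 CPM as lowest value, median and highest value in control animals and 26305, 29609 and 32966 CPM in restricted animals. Its log2 fold change was -0.0015 ± 0.0860 (SE), with a 95% interval of the ratio of 0.881 to 1.13. GAPDH (ENSBTAG00000014731) had 13005, 15308 and 19789 CPM in control animals and 14775, 15649 and 17054 CPM in restricted animals, a log2 fold change of 0.02 ± 0.0967 (SE) with a 95% interval of the ratio of 0.881 to 1.17. PYGM (ENSBTAG00000001032) had 10101, 10809 and 12223 CPM in control animals and 9396, 11904 and 12713 CPM in restricted animals, a log2 fold change of 0.07 ± 0.0803 (SE) with a 95% interval of the ratio of 0.931 to 1.18. For ALDOA and GAPDH the restricted values lay inside the control range, and the sign of either fold change turned with the scaling or with single animals.

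For 29 of the 32 genes the 95% interval lay inside a 1.5-fold change in either direction, against 77.8% of all genes tested. The exceptions were PYGB, TPI1 and PFKFB3. PFKFB3 had the widest interval, a ratio of 0.823 from 0.404 to 1.68. A change between diets of more than 1.5-fold was therefore outside the interval for the other 29 genes.

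**Figure D4:**
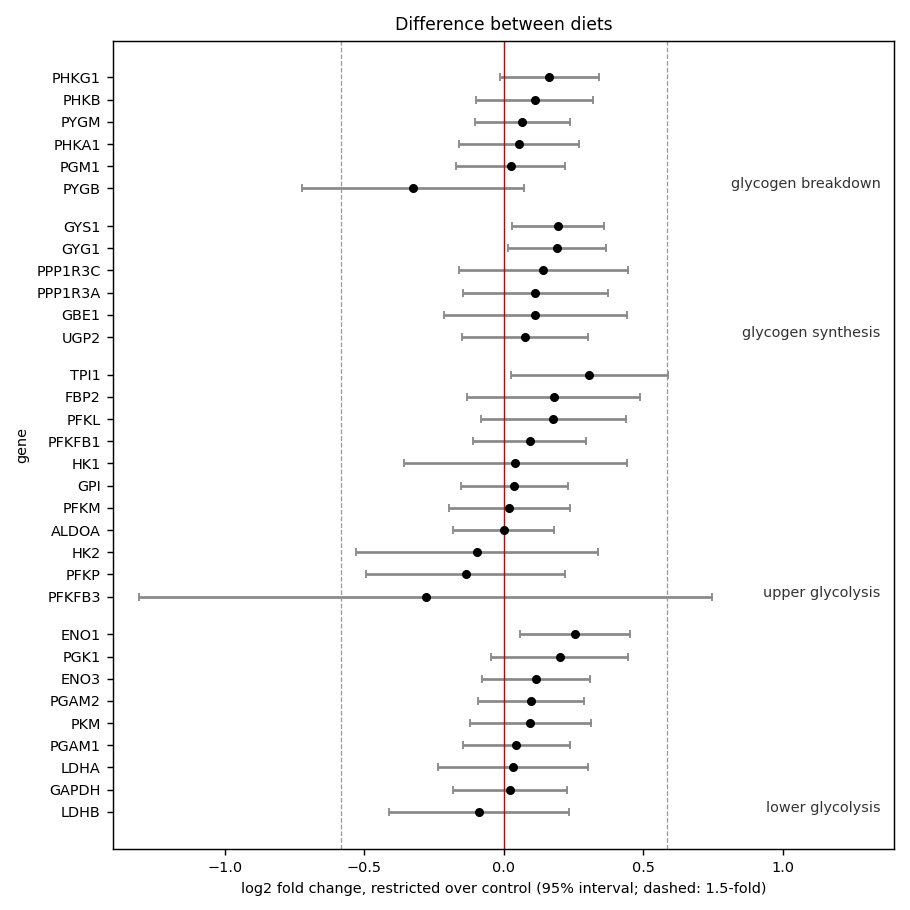
Log2 fold change of each gene (y axis, grouped by role), restricted over control (x axis), with its 95% interval as a bar; the solid line marks no change and the dashed lines 1.5-fold. The intervals of ENO1, GYS1, GYG1 and TPI1 lie above 0, those of PYGB, TPI1 and PFKFB3 reach past 1.5-fold, and no gene passed adjustment.

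The other genes of the pathway were taken from a list of 47, of which 46 were in the table and 39 were tested. Of these 39, 21 had a fold change above 1, against 49.7% of all genes tested. By edgeR, 0 reached an unadjusted p under 0.05, against 4.25%, and 0 were called, where 0% of all genes were. These counts lie near the background. The smallest p values were those of HK3, the hexokinase of blood cells, with a ratio of 0.784, and PPP1CC, a catalytic subunit of the phosphatase that PPP1R3A carries to glycogen, with a ratio of 1.07. Both had an adjusted p of 1 by edgeR.

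Between animals, the 32 genes had a median SD of 0.21 in log2 CPM, beside 0.23 for all genes tested and 0.16 for the 1187 genes above 100 CPM. PFKFB3 stood apart with an SD of 1.03. Its lowest value, median and highest value were 49.3, 101.8 and 234.2 CPM in control animals and 19.7, 49.5 and 314.0 CPM in restricted animals. Restricted 6 and control 4 were the high animals and restricted 7 the low one, on 349 to 4621 reads per animal.

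Some of the genes also varied together. Of the 496 pairs, 27 had a Pearson r over 0.7 across the 14 animals, 5.44% of pairs beside 0.433% of all pairs of tested genes, and 7 pairs lay below -0.7. The median r was 0.14 over the pairs of the 32 genes and -0.0016 over all pairs. By gene, the median r to the other members was negative for PFKFB3, PFKP, LDHB, HK2, PYGB, GBE1, HK1 and PGAM1. All these values share library, scaling and animal, so they describe these 14 libraries only. The closest pairs were consecutive or near steps of lower glycolysis: ENO3 with PKM at 0.91, PGK1 with PGAM2 at 0.89 and PGAM2 with ENO3 at 0.88. Among the breakdown genes, the kinase subunits PHKA1 and PHKB had an r of 0.83, and PYGM with PHKA1 0.82. The low isoforms PYGB and PFKP had an r of 0.76 with each other.

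PFKFB3 had the most negative of these, with a median r of -0.42 to the other 31 genes. Its r was -0.86 with PGK1, -0.81 with PGAM2, -0.78 with PKM, -0.75 with ENO3 and -0.74 with PYGM. Without restricted 6 and restricted 7, the animals farthest from the median of PFKFB3, these were -0.79, -0.71, -0.79, -0.82 and -0.62. Of 13 marker lists, the fast fibre markers had r = -0.58 with PFKFB3 (permutation p = 0.0280, adjusted 0.364; rho = -0.64) and -0.66 without those animals. The endothelial markers had r = 0.48 (permutation p = 0.0806, adjusted 0.489; rho = 0.55) and 0.60 without them. The part of either in the values of PFKFB3 was not tested.

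MYH1 encodes the fast IIx myosin heavy chain, the main fast myosin of this muscle. It held 48586, 55127 and 61487 CPM as lowest value, median and highest value in control animals and 48305, 55552 and 66516 CPM in restricted animals. Restricted 6 was lowest and restricted 4 highest, and the groups overlapped. MYH2, the fast IIa myosin, averaged 15072 ± 3670 CPM, the slow myosin MYH7 11308 ± 2550 CPM and MYH4, the IIb myosin, 220.2 ± 292.6 CPM (SD, n = 14). The myosin genes are near-identical in part, so reads may be split between them.

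Each gene was then fitted against log2 CPM of MYH1 with diet in the model, giving a slope in log2 units per log2 unit of MYH1. None of the 32 was called at an adjusted p under 0.05 by edgeR, where 0% of 12186 genes were called, and limma voom also called 0. The smallest adjusted p among the 32 was 0.985. Of the 32 slopes, 21 were positive, against 48.8% of all genes. At an unadjusted p under 0.05, 7 were positive, against 2.63% of all genes, and 2 were negative, against 2.14%; limma voom put 8 in all there.

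The positive ones included 4 of the 6 breakdown genes, against 2.63% of all genes. PHKA1, the regulatory alpha subunit, had a slope of 0.96 ± 0.317 (SE), PHKB 0.94 ± 0.313, PGM1 0.77 ± 0.300 and PYGM 0.61 ± 0.260, each with an adjusted p of 0.985 by edgeR. From the other roles came PFKM with 0.96 ± 0.312, which had the smallest p of the 32, FBP2 with 1.33 ± 0.458 and PPP1R3A with 0.89 ± 0.415, with the same adjusted p by edgeR. Of the 9 lower glycolysis genes 0 were among the 7, which lies near that 2.63%.

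Restricted 6 carried part of this. That animal was lowest in MYH1 and in PFKM (3403 CPM), PHKA1 (815.8 CPM) and PHKB (536.3 CPM). The next lowest animal in each was control 4, at 3621, 1095 and 647.0 CPM. Without restricted 6, 3 of the 32 genes in place of 9 were at an unadjusted p under 0.05, and the slopes were 0.78 for PFKM, 0.52 for PHKA1 and 0.54 for PHKB. Restricted 4, the animal highest in MYH1, was also the highest in PHKA1 at 1411 CPM.

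The negative slopes with the smallest p were those of PGAM1, PFKFB3 and PFKP. PGAM1, the mutase of most tissues, had a slope of -0.75 ± 0.299 (SE), with its lowest value of 20.2 CPM in control 6. PFKFB3 had -3.24 ± 1.41, which was -0.11 without restricted 6, -5.74 without restricted 4 and -6.86 without control 7, restricted 4 and restricted 7 together. By limma voom the slope of PFKFB3 was -2.35, with an unadjusted p of 0.182. PFKP, the platelet phosphofructokinase, had -1.07 ± 0.598 and alone of these did not reach an unadjusted p under 0.05 by edgeR. All 3 had an adjusted p of 0.985 by edgeR.

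Correlations with MYH1 across the 14 animals stood beside the slopes. Pearson r was positive for 21 of the 32 genes, against 49.1% of all genes, and 9 had an unadjusted permutation p under 0.05, against 5.14%. It was over 0.5 for 8 of the 32 genes, against 3.87% of all genes, and below -0.5 for 1, against 2.96%. PHKA1 had r = 0.71 (permutation p = 0.00220) and rho = 0.79 (p = 0.00130). PHKB had r = 0.70 (permutation p = 0.00404) and rho = 0.63 (p = 0.0182). PFKM had r = 0.70 (permutation p = 0.00633) and rho = 0.76 (p = 0.00249). PYGM had r = 0.69 (permutation p = 0.00660) and rho = 0.76 (p = 0.00252). PGAM1 had r = -0.61 (permutation p = 0.0199) and rho = -0.67 (p = 0.0107). PFKFB3 had r = -0.35 (permutation p = 0.226) and rho = -0.39 (p = 0.166). PFKP had r = -0.45 (permutation p = 0.104) and rho = -0.49 (p = 0.0787).

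Over the 12186 genes tested, none of these passed. The adjusted permutation p was 0.930 for the r of PHKA1, PHKB, PFKM and PYGM and 0.933 for that of PGAM1. It was 0.976 for the r of PFKFB3 and PFKP, and 0.998 for every rho. Without restricted 4 and restricted 6, the animals farthest from the median of MYH1, r was 0.61 for PHKA1, 0.54 for PHKB, 0.62 for PFKM, 0.50 for PYGM and -0.51 for PGAM1. Within diets, r was 0.81 in control and 0.71 in restricted animals for PHKA1, 0.96 and 0.61 for PHKB, 0.54 and 0.82 for PFKM, 0.73 and 0.69 for PYGM, and -0.60 and -0.67 for PGAM1. The r of PFKFB3 was -0.30 without restricted 4 and restricted 6, -0.68 in control and -0.17 in restricted animals. That of PFKP was -0.22, 0.04 and -0.75 in the same order, so it was seen in restricted animals only.

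A difference of the MYH1 slope between diets was not detected. By edgeR's test of the interaction, 0 of the 32 genes were called, where 0% of all genes were, and 0 were at an unadjusted p under 0.05, against 7.19% of all genes. Limma voom gave 0 and 0 as well.

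**Figure D5:**
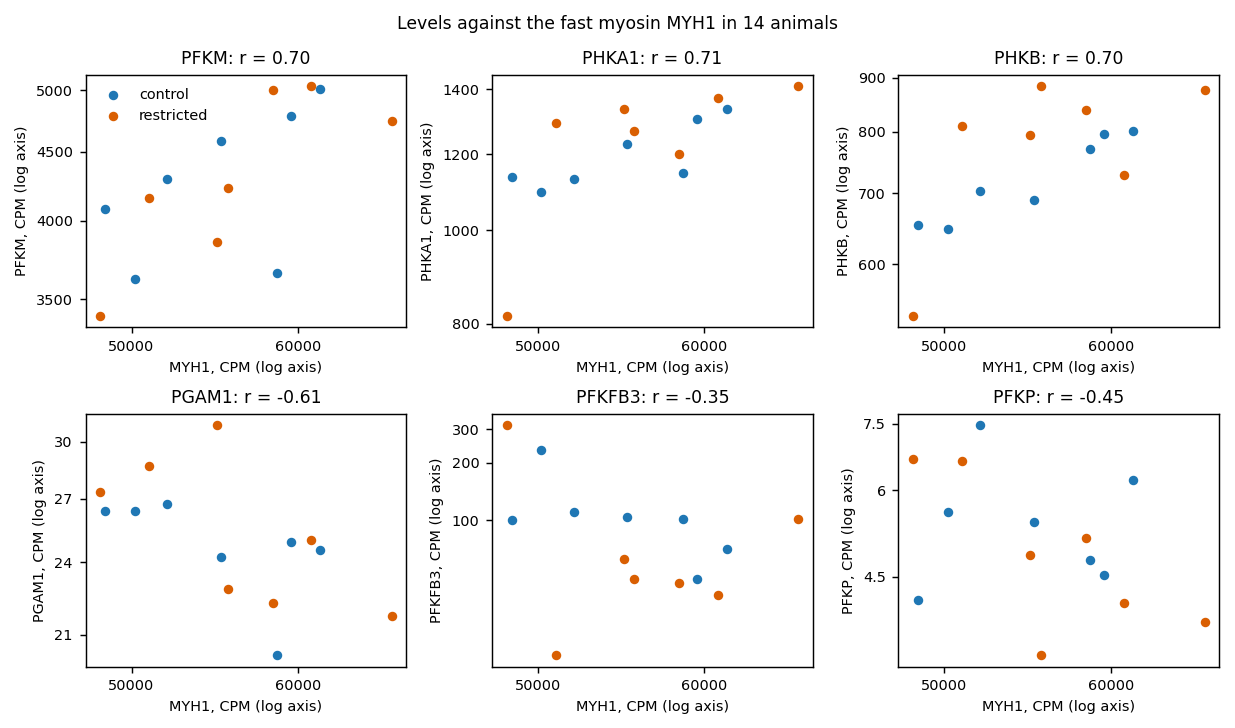
Level of 6 genes (y axes, CPM on a log axis) against MYH1 (x axes, CPM on a log axis) in the 14 animals, coloured by diet. PFKM, PHKA1 and PHKB have r of 0.70, 0.71 and 0.70, PGAM1 of -0.61, PFKFB3 of -0.35 and PFKP of -0.45. Restricted 6, at the left edge with 48305 CPM of MYH1, is lowest in PFKM, PHKA1 and PHKB and highest in PFKFB3.

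With MYH7 in place of MYH1, 7 of the 32 slopes were positive, against 50% of all genes, and 0 of the 32 were called where 0.0328% of all genes were. At an unadjusted p under 0.05, 1 was positive, against 3.56% of all genes, and 2 were negative, against 2.39%. LDHB, the lactate dehydrogenase of heart and slow muscle, had a slope of 0.69 ± 0.173 (SE, adjusted p = 0.275 by edgeR) on MYH7. FBP2 had -0.62 ± 0.174 (SE, adjusted p = 0.403 by edgeR). On MYH1 their slopes had the opposite signs, -0.85 ± 0.579 (SE) for LDHB and 1.33 for FBP2. With MYH2, 17 of the 32 slopes were positive, against 48.9% of all genes, and 0 were called, where 0% of all genes were. At an unadjusted p under 0.05, 3 were positive, against 270 of all 12186 genes, and 0 were negative, against 346. LDHB was positive on this fast myosin too, with a slope of 0.57 ± 0.216 (SE, adjusted p = 0.911 by edgeR).

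Of 12 other marker lists set against MYH1, none passed adjustment, and 3 had a permutation p under 0.05 for r before it. The 10 fast fibre markers, which include no myosin heavy chain, had a summed level with an r of 0.58 to MYH1 (permutation p = 0.0287, adjusted over 12 lists 0.178) and a rho of 0.55. They summed to 77637 to 96173 CPM in control and 80864 to 109021 CPM in restricted animals. Without restricted 4 and restricted 6 their r was 0.43. The 8 adipocyte markers, all tested, had an r of -0.55 (p by permutation 0.0394, adjusted 0.178) and a rho of -0.56, and summed to 189.1 to 292.8 CPM in control and 127.3 to 342.3 CPM in restricted animals. The 8 immediate early genes, which respond quickly to stimuli, had an r of -0.54 (p by permutation 0.0445, adjusted 0.178) and a rho of -0.57, and summed to 252.3 to 873.3 CPM in control and 342.4 to 718.4 CPM in restricted animals. The other 9 lists had r from -0.41 to 0.35 and an adjusted p of at least 0.432. No gene of these lists was at 0 in all animals. Their part in the relation of the 32 genes to MYH1 was not tested.

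Of the 39 other pathway genes tested, 19 had a positive MYH1 slope, against 48.8% of all genes, and 0 were called by edgeR. At an unadjusted p under 0.05, 2 were positive, against 2.63% of all genes, and 1 was negative, against 2.14%, so that these counts lie near the background. Named after their values were seen, the 3 were PFKFB4, a relative of PFKFB1, with 1.95 ± 0.470 (SE), BPGM, a mutase best known from red cells, with 6.34 ± 2.47, and the lactate carrier SLC16A1 with -1.49 ± 0.416. Each had an adjusted p of 0.985 by edgeR.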

How the data were processed

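RNA was measured in longissimus dorsi of 14 female cattle, 7 from control and 7 from restricted dams, grouped by the treatment label. The deposited values are raw read counts per gene, beside a gene length, taken in bases, whose definition was not stated. Per the submitters' processing notes, the authors used FastQC, HISAT2, featureCounts, edgeR and the build ARS-UCD1.2. Quality control, alignment and counting are assumed from what each tool normally does. Versions, annotation release, strand setting and handling of multiply aligned reads: not given in the sources used here, so antisense, overlapping and near-identical genes cannot be told apart. The reference table, of the assembly ARS-UCD2.0, matched 0 gene identifiers (32 of 32 member symbols were in it), so no coordinates or sequences are given.

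The count table was fitted with edgeR 4.0.16 in R 4.3.3: filterByExpr (minimum count 10, minimum total 15), TMM scaling, the quasi-likelihood F test over all genes, and Benjamini-Hochberg adjustment at 0.05. SEs come from the fold change and its F value, and intervals are at the 95% level. CPM and RPKM use the scaled library sizes. MYH1 entered as log2 CPM with a prior count of 2. Isoform shares were tested by exact permutation, correlations with 100000 resamples. DESeq2 1.42.0, limma 3.58.1, other scalings, no filter, other predictors and left-out animals were alternatives. Depth of 13631018 to 17325779 counts per animal leaves genes such as PYGB on 21 to 79 reads.

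Genes with full statistics were, by rule, the 2 with the smallest diet p in each direction, the 3 with the most counts, the isoform sets and the 3 with the smallest MYH1 p in each direction; of other genes, the myosins MYH1, MYH2, MYH4 and MYH7 and the 2 other pathway genes with the smallest diet p. The members and lists were chosen with earlier results of these data known.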

Additional observations from a re-analysis of the deposited data

Results flagged for a closer look

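Single animals standing apart from the other 6 of their group were sought for the 32 genes in both groups, 64 groups by Dixon's ratio; chance flags about 1 in 20 such groups, and 5 were found. PFKFB3 stood at 314.0 CPM in restricted 6, beside 19.7 to 101.7 CPM in the other restricted animals, and at 234.2 CPM in control 4, beside 49.3 to 110.3 CPM in the other control animals. PHKA1 stood at 815.8 CPM in restricted 6, beside 1200 to 1411 CPM in the others. TPI1 stood at 24.4 CPM in control 3, beside 14.6 to 17.8 CPM. PGAM1 stood at 20.2 CPM in control 6, beside 24.2 to 26.7 CPM.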

How the results depend on the processing

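No member was called under any alternative run, for diet, MYH1 slope or interaction. No paired analysis was possible because the replicate numbers only follow the order of the samples and the labels tie no control animal to a restricted one. Genes called between diets numbered 1 with DESeq2 and 1 with only the animals whose titles end in A, in place of 0. Members at an unadjusted diet p under 0.05 numbered 1 with library size only, 0 with titles ending in A and 1 to 6 when single animals were left out, in place of 4 (1 without control 6 or restricted 2; 2 without control 4, control 7 or restricted 1; 6 without restricted 6). The log2 fold change of ALDOA was 0.00080 with DESeq2 size factors, 0.0072 without the filter, 0.0026 with DESeq2, 0.015 with voom, 0.021 with the last title letter added, 0.036 without control 7, restricted 4 and restricted 7, and -0.041 to 0.044 leaving out single animals. That of GAPDH was -0.024 with library size only, -0.085 with titles ending in A and -0.016 to 0.090 leaving out single animals. Members at an unadjusted MYH1 p under 0.05 numbered 3 with MYH2, 3 with MYH7, 5 with titles ending in A, 2 without restricted 4 and restricted 6, and 3 to 12 leaving out single animals, in place of 9. With MYH7, 4 genes were called, 7 members had positive slopes, and the slopes were -0.27 for PFKM, -0.20 for PHKA1, -0.19 for PHKB, 0.028 for PGAM1 and 1.05 for PFKFB3. For the slope by diet, leaving out single animals gave 0 to 2 genes called and 0 to 4 members at an unadjusted p under 0.05 (2 and 4 without restricted 6). With titles ending in A the isoform differences were -0.033 points for PGAM2, 2.95 for HK2 and 0.387 for PPP1R3A. Leaving out single animals gave -0.0355 to 0.00436 for PFKM, -0.00916 to 0.122 for PGAM2, -0.152 to 0.711 for LDHA, -3.23 to 0.918 for HK2 and -2.34 to 0.613 for PPP1R3A, and 8.22 to 18.2 for PFKFB1. Without MYH1 and ACTA1 in the denominator the 32 genes held 10.7% of counts. The cause of these changes was not tested. Depth limits PYGB, PFKP, PFKL, HK1 and TPI1 most. The planned comparison of proteins and promoters was not run.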

Other observations

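The genes whose log2 CPM followed PFKFB3 most closely across the 14 animals were listed after its spread had been seen. The 6 with the largest absolute r were the prostaglandin reductase PTGR2 (-0.88), the glucocorticoid-induced kinase SGK1 (-0.86), the glycolytic kinase PGK1 (-0.86), FBXO9 (-0.85), ATXN10 (-0.85) and ZNF526 (0.85). None passed over the 12186 genes tested, with a smallest permutation p adjusted for r of 0.244 and for rho of 0.625; without restricted 6 and restricted 7 the r of PTGR2 was -0.80 and that of PGK1 -0.79. PGK1 was the one member among the 6.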
